A study of Mus musculus with 6 samples.

Results

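Scd1, Pltp, Apod and Ptgds are 4 lipid genes in a deposited table of 466 genes that the authors had selected as different between microglial samples of 2 groups of mice, and they were taken from it by name. The samples were microglia, the resident macrophages of the brain, freshly isolated from adult brain and profiled as poly(A) RNA. All mice were male, carried the 5×FAD transgenes, which model Alzheimer's disease, and had floxed alleles of Piezo1 (Piezo1fl/fl), the gene of a mechanically gated cation channel. The knockout group (Piezo1MGKO; FAD, 3 samples) also carried Cx3cr1CreER-EYFP, a tamoxifen-inducible Cre and a yellow fluorescent reporter placed under Cx3cr1, a gene of microglia and related myeloid cells. The control group (Piezo1fl/fl; FAD, 3 samples) were littermates with no Cre allele named. Both groups received 4 daily intraperitoneal injections of tamoxifen at 20 mg/kg from 4.5 weeks of age. The strain was given as C57BL/6N, and the age at isolation only as adult. Loss of Piezo1 and the presence of the Cre allele cannot be told apart in this design.

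Each of the 4 genes handles lipid at a different step. Scd1 encodes stearoyl-CoA desaturase, an enzyme of the endoplasmic reticulum that puts a double bond into saturated fatty acids and makes oleate and palmitoleate, and sterol-sensing transcription factors are known to drive it. Pltp encodes phospholipid transfer protein, which moves phospholipid between lipoprotein particles and is known as a transcript of brain endothelium. Apod encodes apolipoprotein D, a small secreted carrier of the lipocalin family that binds arachidonic acid and steroids. Ptgds encodes the lipocalin-type prostaglandin D synthase, which both makes prostaglandin D2 and carries retinoids and other lipids. Leptomeningeal fibroblasts are known for high Apod and Ptgds, and oligodendrocytes express Ptgds and Apod as well.

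The genes lie on 3 chromosomes (GRCm38), all on the minus strand. Scd1 (ENSMUSG00000037071) is at chr19:44394451-44407709, next to the related genes Scd2, Scd3 and Scd4. Of the 50-base words in its longest annotated transcript, 4.66% also occur in transcripts of other genes, chiefly those relatives. The reads were 150-base pairs, longer than these words, so this share does not measure how many reads of Scd1 are uncertain. Pltp (ENSMUSG00000017754) is at chr2:164839518-164857711. Its 3′ part overlaps Ctsa, a cathepsin gene on the opposite strand, over 1515 bases, and 495 exonic bases are shared, which is 19.3% of the exonic bases of Pltp. No source used here says whether counting took account of strand, so reads of the 2 genes cannot be told apart in that stretch. Apod (ENSMUSG00000022548) is at chr16:31296192-31314808 and Ptgds (ENSMUSG00000015090) at chr2:25466709-25470046, and no annotated gene overlaps either.

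The promoter stretches below are shown because Pltp and Ptgds, as described further on, had similar values from sample to sample while Apod had another pattern. Each is the part of a RefSeq window (GRCm38.p6, 250 bases before to 50 after the start, 3 of the 4 genes matched) that precedes the start and holds no annotated exon. Capitals mark matches on either strand to the NF-Y motif CCAAT, the Sp1 motif GGGCGG and the E-box CANNTG.
Pltp, chr2:164857712-164857958, minus strand: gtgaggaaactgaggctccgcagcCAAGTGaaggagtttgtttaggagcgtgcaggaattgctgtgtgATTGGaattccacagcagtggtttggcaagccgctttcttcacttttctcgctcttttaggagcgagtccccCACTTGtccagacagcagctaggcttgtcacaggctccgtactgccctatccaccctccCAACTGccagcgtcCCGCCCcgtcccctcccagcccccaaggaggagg
Apod, chr16:31314809-31315058, minus strand: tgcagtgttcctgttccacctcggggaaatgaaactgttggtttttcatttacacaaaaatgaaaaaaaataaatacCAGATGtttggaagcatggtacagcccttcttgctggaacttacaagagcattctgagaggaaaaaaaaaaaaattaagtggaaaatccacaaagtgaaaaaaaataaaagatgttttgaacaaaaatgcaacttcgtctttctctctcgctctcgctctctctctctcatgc
Ptgds, chr2:25469843-25469999, minus strand: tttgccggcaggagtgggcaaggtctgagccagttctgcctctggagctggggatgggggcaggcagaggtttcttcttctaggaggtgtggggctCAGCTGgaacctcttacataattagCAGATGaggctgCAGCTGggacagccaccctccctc

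The 3 windows had only E-boxes in common, which 72.3% of all 32851 windows of this length hold. In the Pltp window, 1 CCAAT match lay at positions -182 to -178 from the start and 1 GGGCGG match at -37 to -32. Windows with CCAAT were 37.4% and windows with GGGCGG 35.7% of all. A TATAAA match, present in 13.6% of windows, was found in Pltp alone, at positions 37 to 42 after the annotated start. The SREBP motif TCACNCCAC (1.24% of windows) and a pair of AGGTCA half-sites 4 bases apart, the form bound by LXR (0.0152% of windows), had no match in these 3 windows. Scd1 was the gene with no window, so no motif was searched in its promoter. The Apod window was AT-rich, with 37.3% G or C against 59.0% for Pltp and 57.7% for Ptgds.

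All 4 genes had a lower mean in the knockout, but none passed an adjusted p of 0.05. Values are the authors' normalised read counts, which are reads divided by a factor per sample between 0.979 and 1.03, so that 1 unit is about 1 read. Every gene in the table met an unadjusted p under 0.05 and a change of over 2-fold on the authors' own test of these samples. That selection fixed that each gene differed, in either direction, so no test below is independent of it. Of the 466 genes, 410 were lower in the knockout, which is 88.0%. Fold changes and adjusted p-values come from limma, a linear model that shares variance between genes, fitted to log2(value + 1) of the whole table with Benjamini-Hochberg adjustment. In bulk samples, fewer cells of a type and less RNA per cell cannot be told apart.

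**Figure D1:**
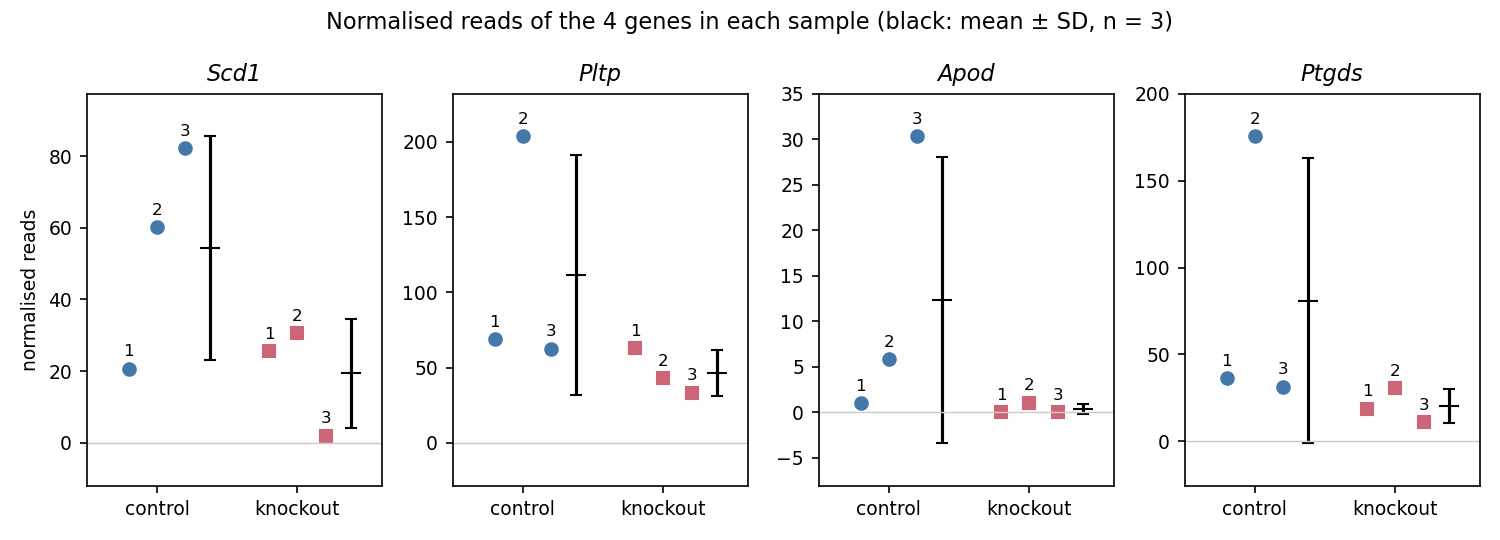
Normalised reads (y axis, a separate linear scale per gene) of Scd1, Pltp, Apod and Ptgds in the 3 control samples (blue circles) and 3 knockout samples (red squares), numbered by replicate, with the mean ± SD in black. One control stands far above the others for Pltp and Ptgds (control 2) and for Apod (control 3), and knockout 3 is the lowest sample for Scd1, Pltp and Ptgds.

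Scd1, which encodes the desaturase, stood at 20.6, 60.1 and 82.2 normalised reads across controls 1, 2 and 3. In knockouts 1, 2 and 3 it had 25.6, 30.6 and 2.02. Controls 2 and 3 were above every knockout sample, but control 1 lay below knockouts 1 and 2, so the groups overlapped. Knockout 3 rested on 2 reads, for which counting error alone allows 0.245 to 7.31 normalised reads (exact Poisson 95% interval). Means were 54.3 ± 31.2 in controls and 19.4 ± 15.3 in the knockout (SD, n = 3 each), a 2.80-fold difference. It was 1.93-fold without knockout 3, where the knockout mean was 28.1. The limma log2 fold change was -1.81 (SE 1.01, 95% interval -4.06 to 0.44), with an adjusted p of 0.137 over the 466 genes. When samples were rescaled so that the listed genes had a median ratio of 1, it was -0.36. The listed genes were selected on this contrast and 88.0% were lower, so this rescaling takes out a shared decrease by construction. The authors' deposited table gives -1.48 with an adjusted p of 1.00.

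Of 34 genes fixed for fatty acid synthesis and desaturation, 3 were in the table. All 3 were lower, as were 88.0% of the listed genes, and limma called 0 of them. The other two were Me1 and Fads2. Fads2, the desaturase that starts the synthesis of long polyunsaturated fatty acids, had 40.2, 55.3 and 35.2 normalised reads across the controls, against 21.6, 19.4 and 24.3 across the knockouts 1, 2 and 3. Its groups did not overlap and its controls were the most even of the lipid genes listed, with a coefficient of variation of 24.0% against 57.5% for Scd1. The Fads2 means were 43.6 ± 10.4 and 21.8 ± 2.44 (SD, n = 3 each), a 2.00-fold difference with a limma adjusted p of 0.178. Me1, the cytosolic malic enzyme that supplies NADPH for fatty acid synthesis, had 9.81, 60.1 and 53.8 normalised reads across the controls, against 6.88, 8.17 and 2.02 across the knockouts. As for Scd1, control 1 was the lowest control and knockout 3 the lowest sample of all. For Me1 limma gave a log2 fold change of -2.46 (SE 0.89, adjusted p = 0.0634).

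Pltp, the phospholipid transfer gene, gave the most reads of the 4, with 68.7, 204 and 62.6 normalised reads across controls 1, 2 and 3. Knockouts 1, 2 and 3 had 62.9, 42.9 and 33.4. Control 3 and knockout 1 both held 64 reads, so the groups met at that level, and 60.8% of the controls' sum came from control 2. Means were 112 ± 79.7 against 46.4 ± 15.1 (SD, n = 3 each), a 2.41-fold difference, which was 1.41-fold without control 2. The limma log2 fold change was -1.08 (SE 0.68, 95% interval -2.59 to 0.44, adjusted p = 0.166). With the rescaling to the listed genes, which takes out the decrease they share, it was 0.47. The authors' deposited table gives -1.27 with an adjusted p of 1.00.

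Of 35 genes for lipid transfer and lipoprotein handling, Pltp and Vldlr were listed. Both were lower, as were 88.0% of the listed genes, and limma called neither. Vldlr, a receptor for lipoproteins that carry apolipoprotein E, had 10.8, 41.7 and 7.83 normalised reads in controls. It had a single read in each knockout sample, at 0.983, 1.02 and 1.01 normalised reads. Control 2 was again the highest control, holding 69.1% of the controls' sum. The limma log2 fold change of Vldlr was -3.04 (SE 0.82), and its adjusted p of 0.0533, the smallest in this fit, was that of 87 listed genes, Vldlr among them.

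Apod, the apolipoprotein D gene, was nearly undetected in the knockout, with 0, 1 and 0 reads in knockouts 1, 2 and 3. Controls 1, 2 and 3 had 0.981, 5.82 and 30.3 normalised reads, from 1, 6 and 31 reads. Control 3 held 81.7% of the controls' sum, and control 1 was no higher than knockout 2, so the groups overlapped at 1 read. Means were 12.4 ± 15.7 against 0.340 ± 0.590 (SD, n = 3 each). The summed reads were 38 against 1, a ratio of 36.9 with an exact binomial 95% interval of 6.24 to 1496 that covers counting error only. Without control 3 the control mean was 3.40. The limma log2 fold change was -2.57 (SE 1.02, 95% interval -4.85 to -0.29, adjusted p = 0.0756). Leaving out control 1 brought it to -3.53 with an adjusted p of 0.0376, in a fit that called 39.5% of the listed genes as lower. The authors' deposited table gives -5.10 with an adjusted p of 0.651.

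Ptgds, the lipocalin that makes prostaglandin D2, had 36.3, 176 and 31.3 normalised reads across controls 1, 2 and 3, against 18.7, 30.6 and 11.1 across knockouts 1, 2 and 3. It was the one gene of the 4 whose groups did not overlap. The gap was small, since control 3 had 32 reads and knockout 2 had 30, with counting intervals of 21.4 to 44.2 and 20.7 to 43.7 normalised reads (exact Poisson, 95%). All knockout samples were below all controls for 45.3% of the listed genes. Means were 81.1 ± 81.9 against 20.1 ± 9.84 (SD, n = 3 each), a 4.02-fold difference. Control 2 held 72.2% of the controls' sum, and without it the difference was 1.68-fold. The limma log2 fold change was -1.61 (SE 0.82, 95% interval -3.45 to 0.24, adjusted p = 0.119), and the exact two-sided permutation p was 0.1, the smallest possible with 3 samples a group. With the rescaling to the listed genes, which takes out the decrease they share, the log2 fold change was -0.09. The authors' deposited table gives -2.01 with an adjusted p of 0.553.

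Of 33 lipocalin and fatty acid binding genes, 3 were listed, with Apod and Ptgds among them. All 3 were lower, as were 88.0% of the listed genes, and limma called 0 of the 3. The authors' adjusted p-values imply that about 19107 genes were tested, of which 466 were listed. Scd1, Pltp, Apod and Ptgds were chosen from the table, so their being listed is no result about these lists. In the prostaglandin list (23 genes, with cyclooxygenases, other terminal synthases and receptors), Ptgds was the one gene listed. Genes outside the table were not analysed here, so their absence from it does not show that they were unchanged.

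**Figure D2:**
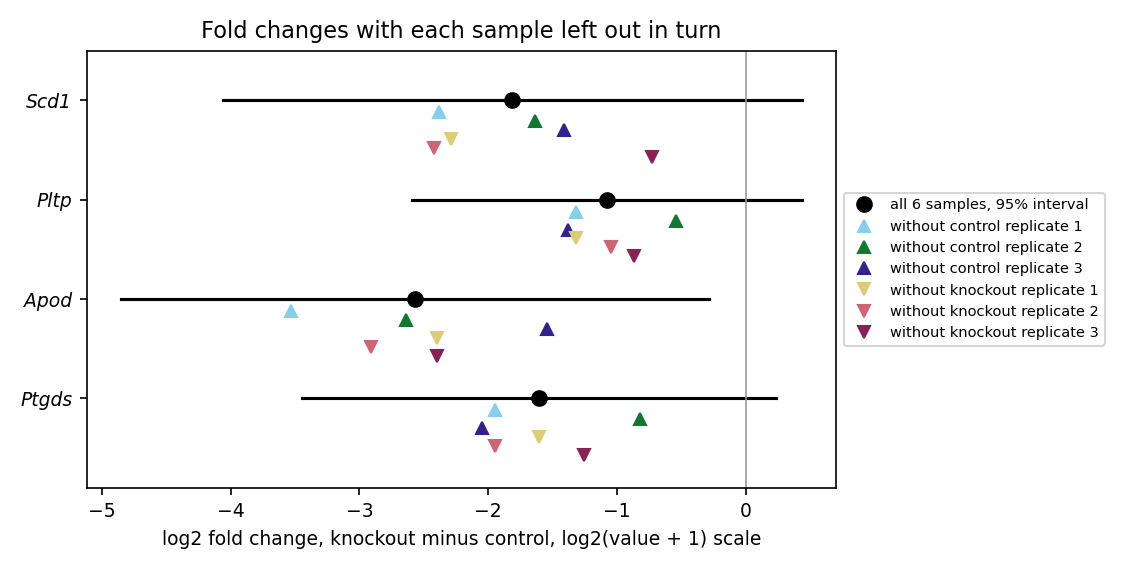
Fold changes on the log2(value + 1) scale (x axis, knockout minus control) for the 4 genes, with all 6 samples (black points with 95% limma intervals) and with each sample left out (triangles). Every triangle lies below 0, and the triangle closest to 0 is without knockout 3 for Scd1, without control 2 for Pltp and Ptgds and without control 3 for Apod.

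Read against the other listed genes, the 4 did not stand out. At an adjusted p of 0.05, limma called 0 of the 4, and 0% of all those listed. Of the 4, Apod alone had an unadjusted limma p-value under 0.05, where 46.4% of the listed genes did so as lower. The authors' adjusted p passed 0.05 for none of the 4, and for 3.00% of the listed genes as lower. DESeq2 on the recovered whole reads likewise called none of the 4, with adjusted p between 0.0692 for Apod and 0.149 for Scd1, and 10.3% of the listed genes as lower. The median limma log2 fold change was -1.71 over the 4 and -1.99 over all 466. By the authors' p-value Ptgds ranked 77, Apod 99, Pltp 166 and Scd1 423 among the 466.

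Levels can be compared between genes per kilobase of gene model. In controls Ptgds stood at 49.2 ± 49.6 and Pltp at 43.6 ± 31.1 normalised reads per kilobase, followed by Scd1 at 11.2 ± 6.45 and Apod at 4.80 ± 6.11 (SD, n = 3 each). The control means of Ptgds and Pltp lay closer together than either SD, and those of Scd1 and Apod about as far apart as their SDs. Within each of the 6 samples Pltp was above Scd1 and Scd1 above Apod. Ptgds was above Pltp only in control 2 (106 against 79.5) and knockout 2 (18.6 against 16.7), and below it in the other samples. In the knockout the mean of Pltp was 18.1 ± 5.88 and that of Ptgds 12.2 ± 5.96 normalised reads per kilobase. These means differed by about as much as their SDs. Scd1 followed at 4.01 ± 3.16 and Apod at 0.132 ± 0.229 normalised reads per kilobase (SD, n = 3 each).

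The controls varied more than the knockout samples for Pltp and Ptgds. The coefficient of variation within controls was 57.5% for Scd1, 71.4% for Pltp, 101% for Ptgds and 127% for Apod, where the median over the 410 lower genes was 84.2%. Within the knockout it was 32.5% for Pltp, 48.8% for Ptgds and 78.7% for Scd1. Control 2 was the highest control for Pltp and Ptgds, as it was for 173 of the 410 lower genes. Control 3 was the highest for Scd1 and Apod, as it was for 224 of them, and control 1 was the highest for 13.

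**Figure D3:**
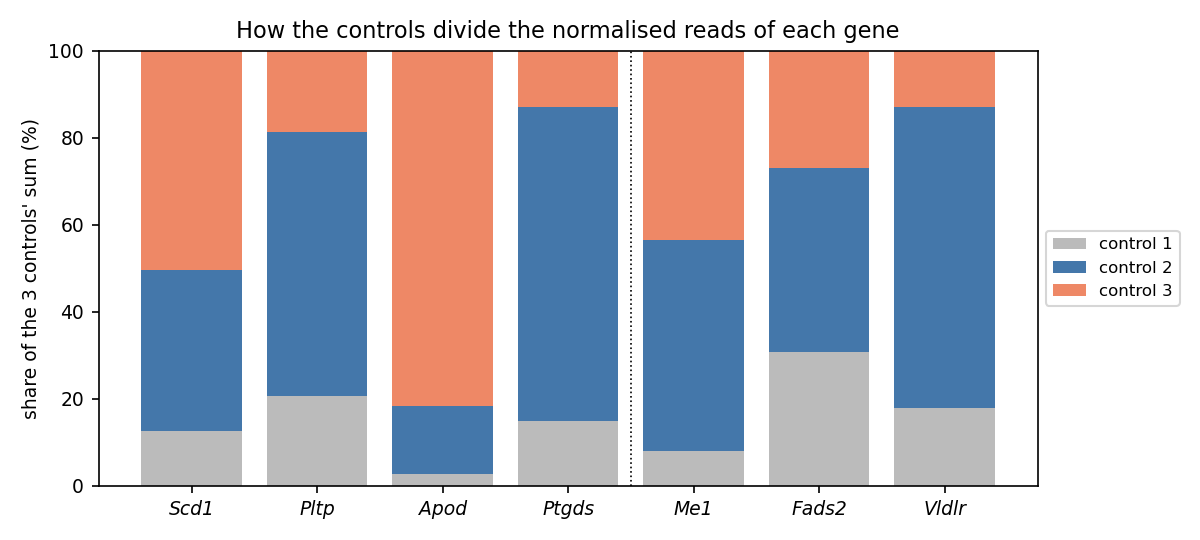
Share of the summed normalised reads of the 3 controls (y axis, %) that came from each control, for the 4 genes and, right of the dotted line, 3 further lipid genes of the table. Control 2 gives the largest part for Pltp (60.8%), Ptgds (72.2%) and Vldlr (69.1%), and control 3 gives most of Apod (81.7%).

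The 4 genes fell into different patterns over the 6 samples. Likeness was measured as the root mean square difference between log2(value + 1) profiles, each centred on its own mean, against named protein-coding genes with a mean of at least 10. Genes listed as lower, the 4 among them, share a gap between the groups through their selection. That makes them more alike, and less like the genes listed as higher. Pltp and Ptgds were the closest pair among the 4, at 0.52, and each ranked 10 in the other's list of 214 genes. Scd1 was 1.15 to 1.21 from the other 3, where the median distance of each of the 4 genes to all genes compared was between 1.11 and 1.30. Apod was farther from Pltp (1.59) and Ptgds (1.57). Its mean of 6.36 kept it out of the genes compared, where its distance would rank 172 for Pltp and 161 for Ptgds.

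Each gene had closer neighbours outside the 4. Among the 4 closest to Pltp were Tspyl4 (0.22), the phosphofructokinase gene Pfkp (0.37) and the potassium channel gene Kcnk1 (0.42). For Ptgds they were the teneurin gene Tenm4 (0.27), the integrin gene Itga3 (0.36), the heparan sulfatase gene Sulf1 (0.40) and Aplp1 (0.44), a relative of the amyloid precursor gene. The closest to Apod were the galectin gene Lgals1 (0.38), Flrt2 (0.45), the collagen chaperone gene Fkbp10 (0.49) and the glypican gene Gpc4 (0.49). Lgals1 had 27.5, 85.3 and 512 normalised reads across the controls, against 27.5, 35.7 and 13.2 across the knockouts, so it shared the peak in control 3 at a far higher level than Apod. For Scd1 the closest were less close: the complexin gene Cplx2 (0.47), the collagen receptor gene Ddr1 (0.48), the dendrin gene Ddn (0.51) and the calponin gene Cnn3 (0.51). They had in common with Scd1 a low value in knockout 3, where Cplx2 had 0 and Cnn3 2.02 normalised reads. Control 1 was also the lowest control for each of them, as for Scd1.

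**Figure D4:**
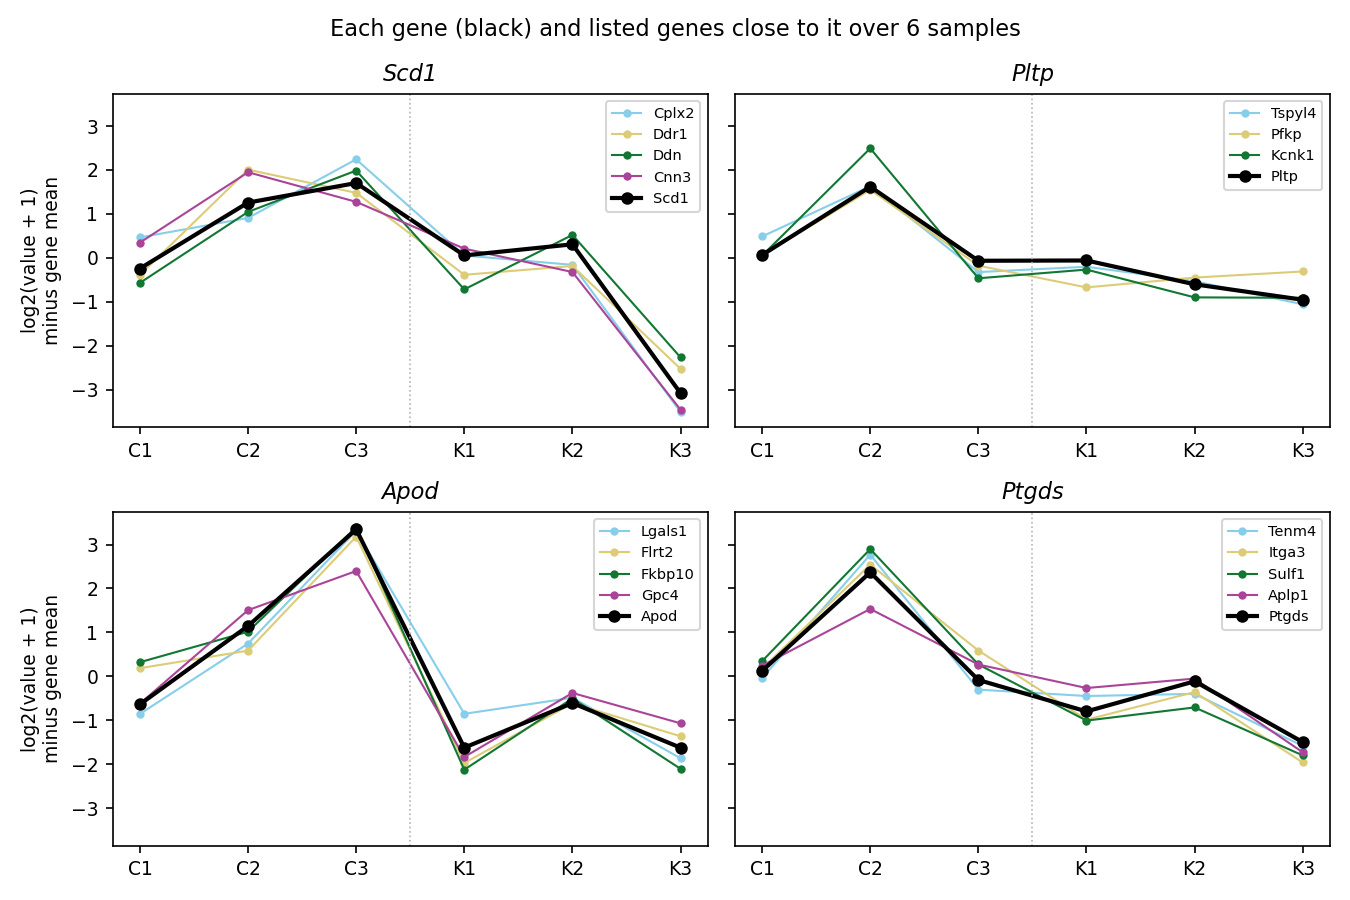
Profiles over controls 1 to 3 (C1 to C3) and knockouts 1 to 3 (K1 to K3) of each gene (black) and 3 (Pltp) or 4 (the others) of the listed genes closest to it, as log2(value + 1) minus the gene's mean (y axis). Lines join the values of 1 gene and imply no order of samples. Pltp and Ptgds peak in C2, Apod in C3, and Scd1 is lowest in K3.

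Markers of cell types that express these genes were also in the table and differed between the same samples. Of 25 leptomeningeal and perivascular fibroblast markers, 5 were listed: Apod, Ptgds, Igfbp2, Ogn and Fmod. All 5 were lower, against 88.0% of the listed genes. Without Apod and Ptgds, their summed level was 84.4, 376 and 72.4 normalised reads across the controls, against 49.2, 28.6 and 10.1 across the knockouts. Like Ptgds, that sum was highest in control 2 and lowest in knockout 3, and most of it, except in control 3, was Igfbp2 (364 in control 2). Igfbp2 had 77.5, 364 and 29.4 normalised reads across controls 1, 2 and 3. The choroid plexus marker Ttr had its controls in the same order, at 3369, 18571 and 265. Ogn and Fmod, the other genes of that sum, were highest in control 3. Ogn, the gene of the matrix proteoglycan osteoglycin, had 2.94, 11.6 and 23.5 normalised reads across the controls, against 0, 0 and 1.01 across the knockouts, an order of controls like that of Apod. Fmod, the fibromodulin gene, had 3.92, 0.970 and 19.6 normalised reads across the controls, against 0.983, 0 and 0 across the knockouts, so control 2 was no higher than knockout 1.

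Of 22 endothelial markers, Pltp and Spock2 were listed. Spock2, a matrix proteoglycan gene, had 20.6, 32.0 and 55.8 normalised reads across the controls, against 7.86, 16.3 and 15.2 across the knockouts, so it was highest in control 3 and not, like Pltp, in control 2. Of 24 oligodendrocyte markers, Gsn and Cryab were listed, with a summed level of 261 to 956 normalised reads in controls, highest in control 3, and 181 to 326 in the knockout. In every sample most of that sum was Gsn (834 in control 3). Of 19 choroid plexus and ependymal markers, 8 were listed, all lower, again against 88.0% of the listed genes. Their sum was 364 to 19280 normalised reads in controls, highest in control 2, and 593 to 2046 in the knockout, and most of it was the transthyretin gene Ttr. The part of these cell types in the values of Scd1, Pltp, Apod and Ptgds was not tested.

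Other cell type markers had summed levels that also differed between the groups or within them. Neuron markers (7 of 20 listed) summed to 75.5 to 796 normalised reads in controls, highest in control 3, and 12.1 to 68.4 in the knockout. In control 3, 542 of the 796 came from Thy1 alone. Astrocyte markers (3 of 20) summed to 10.8 to 143 against 3.04 to 22.5, and mural markers (2 of 15) to 24.2 to 255 against 5.11 to 26.3. Border macrophage markers (2 of 15, Cd209a lower and Clec4n higher) summed to 11.8 to 14.7 against 5.11 to 11.1 normalised reads. Of 20 microglia markers, Cx3cr1 was the one listed, at 58569 to 79363 normalised reads in controls and 27906 to 35698 in the knockout, where its locus carries the Cre. In control 2, where the choroid plexus and ependymal sum was 19280 normalised reads, Cx3cr1 had 61450. These reads were not divided by gene length (1219 bases for Ttr, 4505 for Cx3cr1), so they do not compare the levels. Other microglial markers were not analysed here.

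**Figure D5:**
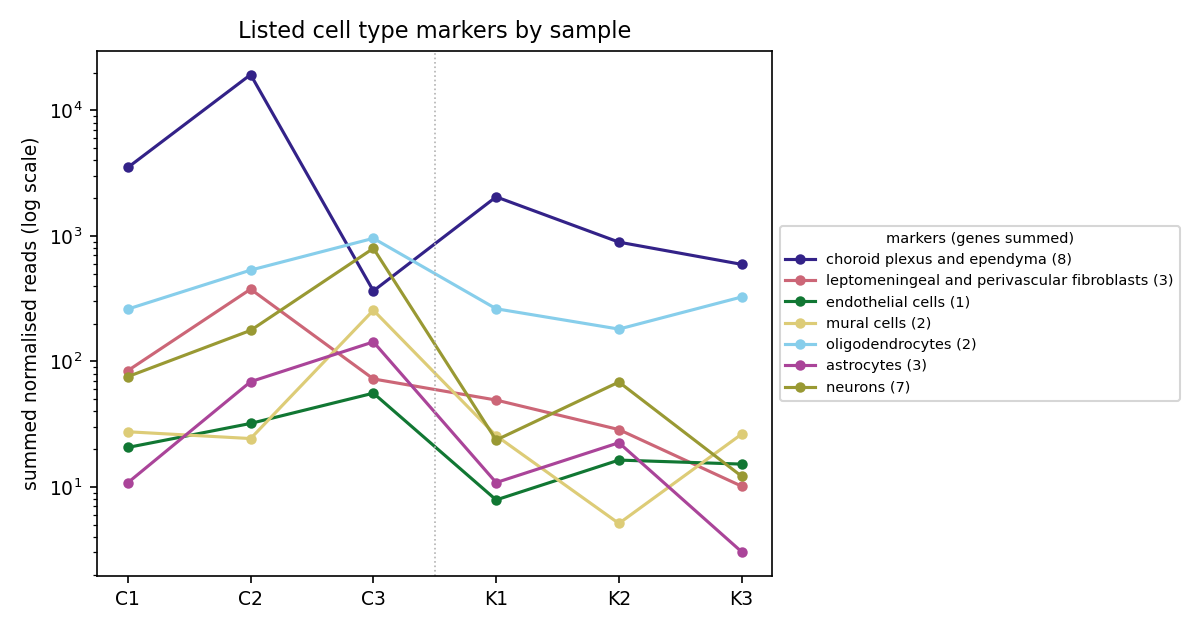
Summed normalised reads (y axis, log scale) of the listed markers of 7 cell types in controls 1 to 3 (C1 to C3) and knockouts 1 to 3 (K1 to K3), without Pltp, Apod and Ptgds, with the number of genes summed in brackets. The choroid plexus and leptomeningeal sums are highest in C2, where the leptomeningeal sum is mostly Igfbp2, and the other 5 sums are highest in C3.

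The table allowed few checks of the series itself. Piezo1 is not in it, so the knockout labels were not checked by the targeted gene. Reads recovered in the 466 genes were 113962 to 180760 in controls and 49643 to 71292 in the knockout, which is not library depth, and depth is unknown here. The number of mice behind each biological repetition is not stated, so the spread that every p-value here rests on may be in part technical.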

How the data were processed

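The deposited table holds a normalised read count (a signal value) per gene in 6 samples, and the authors' log2 fold change, p-value and adjusted p-value per gene. Per the submitters' processing notes the build was GRCm38 and the tools, in no stated order, were HISAT2, cutadapt 1.11, DESeq2, R 3.6.1 and RSEM 1.2.30, and reads were 150-base pairs per the labels' protocols. Multiplied by 1 factor per sample, 100% of the deposited values were whole reads (tolerance 1e-06).

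All 466 genes were fitted with limma 3.58.1 (R 4.3.3) on log2(value + 1), with a mean-variance trend, no filter and Benjamini-Hochberg adjustment at 0.05. Fold changes on this scale understate those of low genes and can exceed the ratio of means where samples are uneven, as for Scd1. edgeR 4.0.16 and DESeq2 1.42.0 on the recovered reads, with the authors' factors, were alternatives. The main limma fit, edgeR and DESeq2 were first run on simulated reads with known fold changes. Their simulated spread followed a fixed rule and was not fitted to these samples. The permutation test, the intervals from reads and the replicate block were not simulated. Intervals from reads cover counting error only, since PCR copies are not marked.

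The 4 genes and the 14 gene lists (5 of lipid pathways, 9 of cell type markers) were chosen with earlier results of these data known. Named genes were the 4, the 4 closest genes to each (rule in the text), the listed genes of the lipid lists, and up to 3 per marker list plus those that complete a count. Spock2, Ogn and Fmod were picked out for comparison after their values were seen. Annotation was GENCODE M21 and promoters RefSeq. Some results of these rules are not reported here.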

Additional observations from a re-analysis of the deposited data

How the results depend on the processing

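Of 59 alternative fits of the 4 genes, 57 kept both the direction and the side of the 0.05 threshold, and 58 gave a lower level in the knockout. The fits reuse the samples on which the genes were selected, and the rescaled fits are among them, so this tally is no independent support. Rescaling by the listed genes (a median ratio of 1 over those with reads in every sample), which shifted the median of the 466 log2 fold changes by 1.03, turned Pltp to 0.47 and left Scd1 at -0.36, Ptgds at -0.09 and Apod at -1.80. Relative to the median of the listed genes, Pltp was then 1.44 above it, against 0.91 before. Those genes were selected on this contrast and 88.0% were lower. The rescaling therefore takes out a shared decrease by construction and is no check of the direction. With 1 sample left out at a time, the log2 fold change ranged from -2.42 to -0.72 for Scd1, from -1.38 to -0.54 for Pltp, from -3.53 to -1.54 for Apod and from -2.05 to -0.82 for Ptgds, and Apod without control 1 was the one call. With control 1 as the one control, whose spread was then assumed equal to that of the knockout, the values were -0.66, -0.60, -0.65 and -0.93 in the same order of genes. Apod has a mean under 10 and has no value under the filter at 10.

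The number of listed genes called by limma, 0 with all samples, was 120 with a pseudocount of 0.5, 1 under the filter, 56 after the rescaling and 54 with control 1 as the one control. DESeq2 called 48, all as lower, and edgeR 0, with 246 at an unadjusted p under 0.05 by edgeR and 245 by limma. With 1 sample left out it ranged from 0 to 196, at 196 without control 1 and 36 without control 3. The cause was not tested. With the repetition number as a replicate block, 4 genes were called (Cx3cr1, Loxl1, Fosb and Hba-a1) and none of the 4 lipid genes, whose adjusted p was 0.123 for Scd1, 0.208 for Pltp, 0.0759 for Apod and 0.115 for Ptgds. Deviations of same-numbered samples correlated at -0.04, -0.04 and 0.07, so the numbers gave no sign of pairing. The 38 and 1 reads of Apod limit its precision.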
